A study of Ginkgo biloba with 6 samples.

Results

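Reference genes are genes whose transcript level is taken as constant, so that the level of other genes can be expressed relative to them, as in quantitative PCR. In plants the genes most often used are those of actin, tubulin, glyceraldehyde-3-phosphate dehydrogenase, elongation factor 1-alpha and ubiquitin, whose products serve the cytoskeleton, glycolysis, translation and protein turnover. Whether a gene suits this use depends on the tissue and the treatment, and its constancy is judged over the samples compared. The genes described here are 100 evenly expressed Ginkgo biloba leaf genes, over trees that were cut back and trees that were not. They are the most even of those within the limits of level given below, not of all leaf genes.

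Leaves came from trees of the cultivar Fozhi, 5 years of age, in a nursery where leaves are harvested, at 0.6 m between rows. In the truncated group, 30 trees had been cut to a trunk 85 cm high. In the control group, 30 trees were left uncut. Leaves at the harvesting stage gave 3 RNA libraries per group, lettered A, B and C. How many trees went into a library, and whether libraries came from different trees, is not stated, so spreads and p-values describe these libraries only and may be partly technical.

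The 100 genes were selected on their measured values. The expression table holds 26044 IDs in FPKM, a measure of fragments per unit of transcript length and of library size, of which 25439 begin with Gb. Gb IDs were eligible if their 6 values averaged 20 FPKM or more and they were not among the 100 of highest mean, which left 4101. The 100 of these with the lowest SD of log2(FPKM + 1) over the 6 libraries are called stable IDs below. A further 21238 Gb IDs had a mean under 20 FPKM, and the 605 IDs beginning with XLOC were outside the rule. Because this SD chose them, the low spread of the stable IDs and their small group differences are given as descriptions. The table pairs its IDs with no gene names, descriptions or positions, and none was assigned. The usual reference gene families and leaf cell type markers were therefore not looked up, and whether any stable ID belongs to such a family is not known here.

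Relative sequencing depth was read as the commonest ratio of low FPKM values between control A and each library, with control A at 1. It was 1.01, 0.933 and 1.09 in truncated A, B and C, against 1.0, 0.94 and 0.947 in control A, B and C. Absolute depth is not given. Among the 4001 eligible IDs that were not chosen, 41.4% were lowest in truncated B, 26.8% in truncated C and 17.2% in control B. Of the same IDs, 25.3% were highest in truncated B, 21.8% in truncated C and 23.4% in control B. Among them, the first principal component of the deviations held 64.7% of the variance and set truncated B (loading 0.67) against truncated C (-0.53) and control B (-0.48). These libraries stand apart from the rest, so the choice was also made without them.

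The stable IDs varied by a few percent. Their coefficient of variation over the 6 libraries ran from 2.24% to 5.89%, with a median of 4.76%, against a median of 19.0% for the other eligible IDs. The SD of log2(FPKM + 1) was 0.032 to 0.082 with a median of 0.067, and its median was 0.27 in the other eligible IDs. The highest of the 6 values was 1.06 to 1.19 times the lowest, and for 17 stable IDs it was under 1.1 times the lowest. For the other eligible IDs the median ratio was 1.69.

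Gb_13623 had the lowest SD, 0.032. It stood at 256.7, 252.6 and 241.2 FPKM in truncated A, B and C, against 251.2, 253.8 and 246.5 FPKM in control A, B and C. Its highest and its lowest value both came from truncated libraries, so the control values lay inside the truncated range.

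Gb_24860 was next, at 54.3, 52.7 and 52.3 FPKM in truncated leaves and 51.2, 51.6 and 53.7 FPKM in control leaves. Gb_13057 had 33.7, 31.8 and 32.8 FPKM in truncated leaves and 32.6, 32.1 and 31.6 FPKM in control leaves. In both the groups overlapped, with truncated A the highest library.

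Gb_12867 had 137.8, 139.8 and 132.5 FPKM in truncated leaves and 132.4, 138.6 and 139.3 FPKM in control leaves. Its group means, 136.7 ± 3.8 FPKM and 136.8 ± 3.8 FPKM (SD, n = 3 each), lay closer together than the libraries within either group. Gb_10528, Gb_04854, Gb_20264, Gb_22830 and Gb_02239 had means of 20.9 to 59.3 FPKM and SDs of 0.038 to 0.046 on the log2 scale. Gb_27509 was the abundant member of the 10 with the lowest SD, at 659.2, 687.7 and 689.8 FPKM in truncated leaves and 642.2, 669.5 and 645.6 FPKM in control leaves. Truncated A lay below control B in this ID, so its groups overlapped too.

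**Figure D1:**
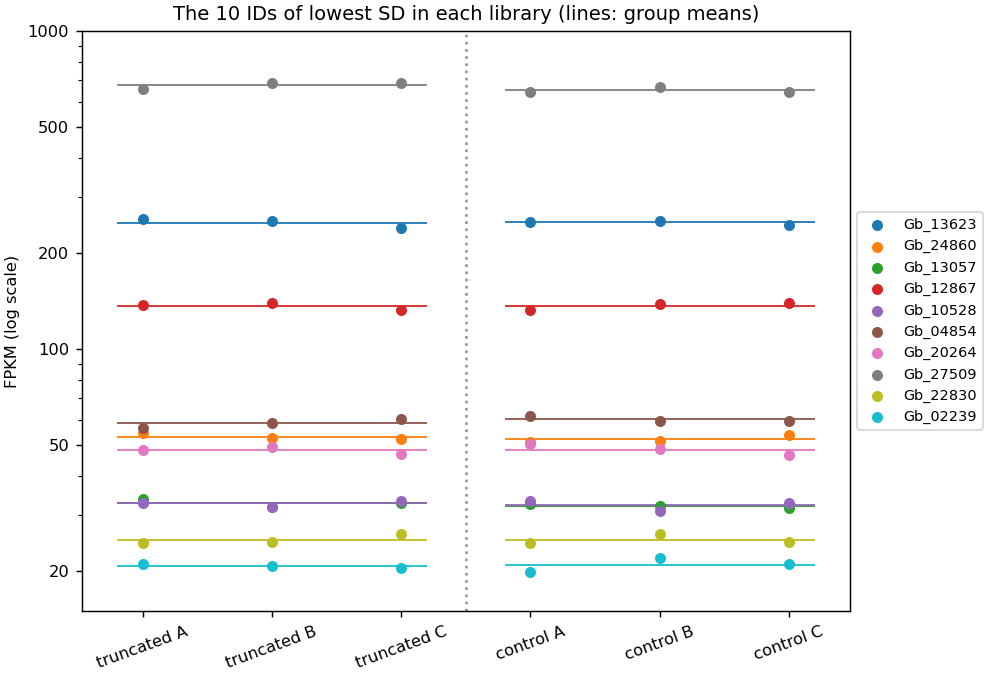
FPKM (log axis) of the 10 stable IDs of lowest SD in each of the 3 truncated and 3 control libraries, with points for libraries and horizontal lines for group means. Each ID stays at its own level in all libraries, from Gb_02239 at a mean of 20.9 FPKM to Gb_27509 at 665.7 FPKM, and in no ID is the highest library more than 1.11 times the lowest.

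The stable IDs covered the whole range of eligible levels. Their means ran from 20.1 FPKM to 724.9 FPKM with a median of 45.0 FPKM, and the median of the other eligible IDs was 41.9 FPKM. Gb_31935 was the most abundant, at 775.9, 705.2 and 685.9 FPKM in truncated leaves and 747.8, 684.5 and 750.1 FPKM in control leaves. Gb_11020 was the least abundant, at 20.2, 19.8 and 19.2 FPKM in truncated leaves and 21.4, 20.4 and 19.4 FPKM in control leaves, followed by Gb_20394 at a mean of 20.7 FPKM.

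Of 1255 eligible IDs of 20 to 30 FPKM, 27 were stable IDs (2.15%), and of 1122 of 30 to 50 FPKM, 27 were (2.41%). Of 946 IDs of 50 to 100 FPKM, 29 were stable IDs (3.07%), of 461 of 100 to 200 FPKM, 10 were (2.17%), and of 317 of at least 200 FPKM, 7 were (2.21%). The shares were thus alike from class to class, and so was the median SD of the eligible IDs, 0.26 to 0.27 in every class.

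**Figure D2:**
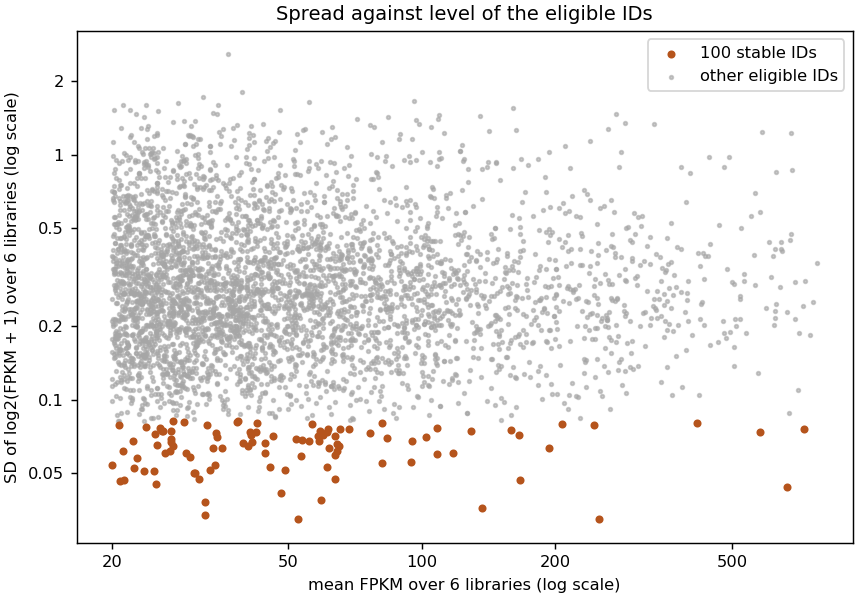
SD of log2(FPKM + 1) over the 6 libraries (log axis) against mean FPKM (log axis) for the 100 stable IDs and the 4001 other eligible IDs. The stable IDs form the lower edge of the cloud at all levels from 20.1 to 724.9 FPKM, with no gap between the last stable ID and the next.

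The limit between stable and other IDs was arbitrary. The last 3 inside it were Gb_28961, Gb_38930 and Gb_14964, with SDs of 0.0811, 0.0815 and 0.0816. The first 3 outside were Gb_05944, Gb_22631 and Gb_13995, with SDs of 0.0817, 0.0817 and 0.0819. IDs outside the rule could be as even, with an SD no higher than that of the last stable ID. Of the 11586 Gb IDs that averaged 1 to under 20 FPKM, 105 were (0.906%), on a scale that understates fold changes of low IDs. Of the 100 Gb IDs of highest mean, which the rule set aside, 3 were, and of the 8 XLOC IDs that averaged 20 FPKM or more, 0 were.

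Differences between truncated and control leaves were small among the stable IDs. The median absolute log2 fold change was 0.040, the range was -0.12 to 0.13, and 46 of the 100 were higher on average in truncated leaves. At an adjusted p under 0.05 (limma, Benjamini-Hochberg), 0 stable IDs were called, where 0.0% of the 16054 tested IDs were. At an unadjusted p under 0.05, 0 stable IDs differed, against 6.87% of all tested IDs. The rule had already used the same 6 values, so nothing is read from these counts.

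The interval of the fold change shows how large a difference the fit allows. All 100 stable IDs had a 95% interval within a 2-fold change in either direction, against 75.6% of the 4101 eligible IDs, stable IDs included. Of all tested IDs, which reach down to a mean of 1 FPKM, 64.1% did. The choice for low SD over the same 6 values favours the count of 100, so nothing is read from it. Over the 100 IDs, the lowest lower bound was 0.744-fold and the highest upper bound 1.36-fold on the log2(FPKM + 1) scale. The standard errors, 0.12 to 0.15, are those of limma, which draws the variance of each ID towards that of IDs of like level. The intervals are thus wider than the spread of the stable IDs alone would give. The selection for low spread is not taken into account in them.

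The groups did not overlap in 7 stable IDs, with truncated leaves higher in 2 and lower in 5. Of all tested IDs, 14.1% had groups that did not overlap. Gb_28961 had the largest positive difference, with 40.6, 39.7 and 40.1 FPKM in truncated leaves and 36.5, 35.1 and 38.1 FPKM in control leaves. Its log2 fold change was 0.13 ± 0.13 (SE), with an adjusted p of 0.979 in limma. Gb_19729 followed, with 67.3, 66.6 and 69.7 FPKM in truncated leaves and 61.9, 65.9 and 60.6 FPKM in control leaves. In both IDs every truncated library lay above every control library, and Gb_28961 was also among the last 3 inside the limit.

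In the opposite direction, Gb_12637 had 38.8, 39.0 and 39.9 FPKM in truncated leaves and 43.6, 43.5 and 41.5 FPKM in control leaves, a log2 fold change of -0.12 ± 0.13 (SE), with an adjusted p of 0.982 in limma. Gb_07566 had 51.5, 50.7 and 53.1 FPKM in truncated leaves and 53.8, 56.9 and 56.8 FPKM in control leaves. Every truncated library of these IDs lay below every control library.

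Within groups, the stable IDs had a median SD of log2(FPKM + 1) of 0.059 in truncated leaves and 0.057 in control leaves, and 52 of the 100 varied more in truncated leaves. Among the other eligible IDs these medians were 0.31 in truncated and 0.19 in control leaves, and 78.8% varied more in truncated leaves. The deviations that were left in the stable IDs followed no single direction, as their first component held 29.6% of the variance and the next 3 held 21.2%, 19.2% and 18.2%. Each library was the highest for 12 to 22 of the 100 and the lowest for 9 to 21. Choosing for low SD over these libraries limits the within-group SDs and leaves out IDs with a large shared deviation. These values are therefore descriptions.

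The geometric mean of the stable IDs, which the choice for low spread makes nearly flat, is given as a description. It was 53.2, 52.7 and 52.5 FPKM in truncated A, B and C, and 52.4, 52.9 and 53.3 FPKM in control A, B and C. The highest library lay 1.64% above the lowest. The group means were 52.8 ± 0.4 FPKM in truncated leaves and 52.9 ± 0.4 FPKM in control leaves (SD, n = 3 each). The 100 IDs made up 1.09% of all FPKM of truncated B, and 1.17% to 1.23% of those of each other library.

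Ratios between stable IDs are not altered by dividing each library by a factor of its own, though quantile scaling can alter them. Their spread is bounded by the choice for low SD in the same 6 libraries, so it is given as a description. Over the 4950 pairs of stable IDs, the SD of the log2 ratio over the 6 libraries had a median of 0.090 and a highest value of 0.16, against a median of 0.43 over all pairs of eligible IDs. Averaged over all its partners, this SD was lowest for Gb_24860 (0.069), Gb_12867 (0.071) and Gb_13623 (0.071), which were also among the 4 IDs of lowest SD. The pair with the steadiest ratio, singled out after its values were seen, was Gb_20661 and Gb_31935, at an SD of 0.014. Gb_20661 had 172.2, 154.9 and 151.2 FPKM in truncated leaves and 161.3, 150.7 and 164.3 FPKM in control leaves, so that its libraries stood in the same order as those of Gb_31935.

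Whether a choice made on some libraries holds in others was read from libraries that had no part in the choice. The rule was run on 5 libraries at a time, and the deviation of the chosen IDs in the library left out, from their mean in the other 5, was set beside that of the other eligible IDs. The median absolute log2 deviation of the 100 chosen IDs was 0.077, 0.21 and 0.13 in truncated A, B and C, and 0.078, 0.11 and 0.063 in control A, B and C. For the IDs not chosen it was 0.12, 0.37 and 0.31 in truncated A, B and C, and 0.17, 0.26 and 0.14 in control A, B and C. The chosen IDs were thus closer to their level than the others in all 6 libraries, by 1.56 to 2.29 times. The 6 choices share libraries and are no independent repeats, so no test was made.

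The median signed log2 deviation of the chosen IDs in the library left out was 0.03, -0.16 and -0.08 in truncated A, B and C, and -0.04, -0.02 and 0.02 in control A, B and C, against 0.03, -0.14 and -0.02 in truncated A, B and C and 0.003, 0.03 and 0.04 in control A, B and C for the IDs not chosen. In truncated B, which had the lowest median of either set, the chosen IDs and the IDs not chosen both lay below their other libraries.

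A choice for low spread in 5 libraries makes a wider spread likely in a library that had no part in it. The SD of the chosen IDs over the 5 libraries that chose them was at most 0.081 in any of the 6 runs. It is not the same measure as the deviation in a single library. In truncated B, 16 of the 100 IDs chosen without it deviated by over 0.5 and 5 by over 1, that is by more than 2-fold, against 38.4% and 13.7% of the IDs not chosen. In truncated C, 6 of the 100 deviated by over 0.5, against 28.2% of the IDs not chosen, and in control B 3 did, against 21.4%. In truncated A, control A and control C, 0 did, against 5.24%, 9.24% and 4.51% of the IDs not chosen.

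**Figure D3:**
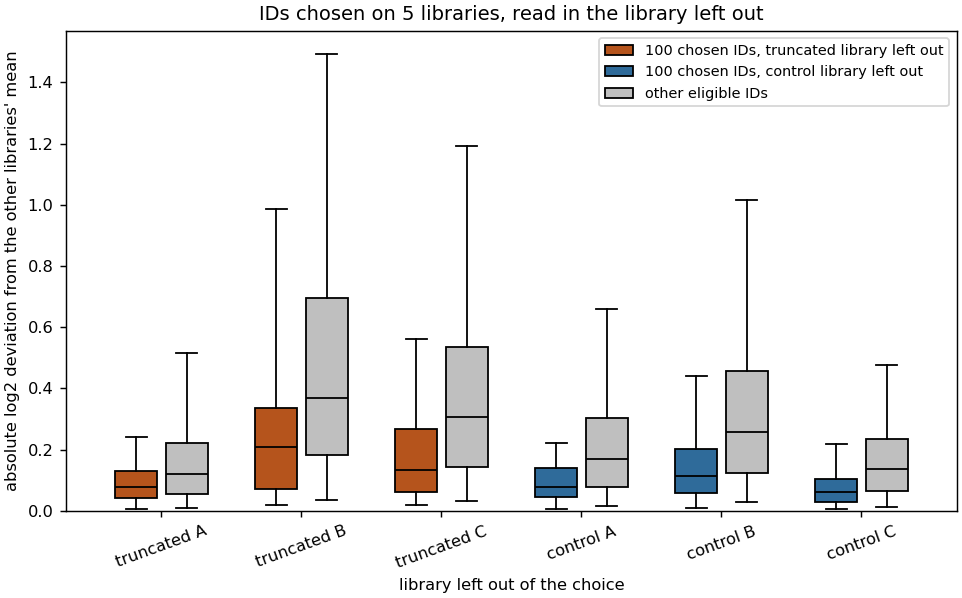
Absolute log2 deviation of each ID in the library left out from its mean in the other 5, for the 100 IDs chosen on those 5 libraries (coloured boxes) and for the other eligible IDs (grey boxes); boxes show quartiles and median, whiskers the 5th and 95th percentiles. The chosen IDs have the lower median in each of the 6 libraries, and both sets deviate most in truncated B, with medians of 0.21 and 0.37.

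The same was done between the groups. The 100 IDs of lowest SD in the truncated libraries had a median SD of 0.10 in the control libraries, against 0.19 for the IDs not chosen, and 29 of them were stable IDs. These median SDs were 0.058 against 0.079 without control B, and 0.16 against 0.18 without truncated C. The 100 IDs of lowest SD in the control libraries had a median SD of 0.19 in the truncated libraries, against 0.30 for the IDs not chosen, and 11 of them were stable IDs. Where they had been chosen, the median SDs were 0.036 in truncated and 0.020 in control leaves. Of both sets of 100, 6 IDs were in common, 5 of them stable IDs, with Gb_13623, Gb_13057 and Gb_04854 among these. IDs chosen in a group were thus less variable in the other group than the IDs not chosen. They were more variable there than where they had been chosen, which picking the lowest SDs over few libraries makes likely.

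When each library was left out in turn, 33 of the 100 stable IDs were chosen all 6 times, the first 23 in the order of SD being among them, and 2 were chosen in none of the 6 runs. The number chosen again was 78, 43 and 57 without truncated A, B and C, and 74, 60 and 84 without control A, B and C. Without control B and truncated C together it was 30. Most of the list was thus replaced when truncated B, or the pair of control B and truncated C, was left out.

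Which IDs were chosen depended on the scaling between libraries. Scaling every library to the same sum of FPKM kept 44 of the 100, and giving all libraries the same distribution of values kept 35. Under median-of-ratios scaling, which divides each library by the median ratio of its values to the mean level of each ID over libraries, 3 were kept, Gb_29397, Gb_20394 and Gb_06709. With the median taken over the eligible IDs alone, an alternative added after seeing the data, 62 were kept.

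Over all IDs above 0 in every library, the median-of-ratios factor was 0.9995, 0.86 and 1.13 in truncated A, B and C, and 0.951, 1.09 and 0.9985 in control A, B and C. Over the eligible IDs alone it was 1.02, 0.939 and 0.998 in truncated leaves and 1.0, 1.03 and 1.02 in control leaves. The factor from the geometric mean of the stable IDs ran from 0.993 to 1.01 over the 6 libraries. That narrow range was fixed by choosing IDs for low spread of unscaled FPKM in these libraries.

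**Figure D4:**
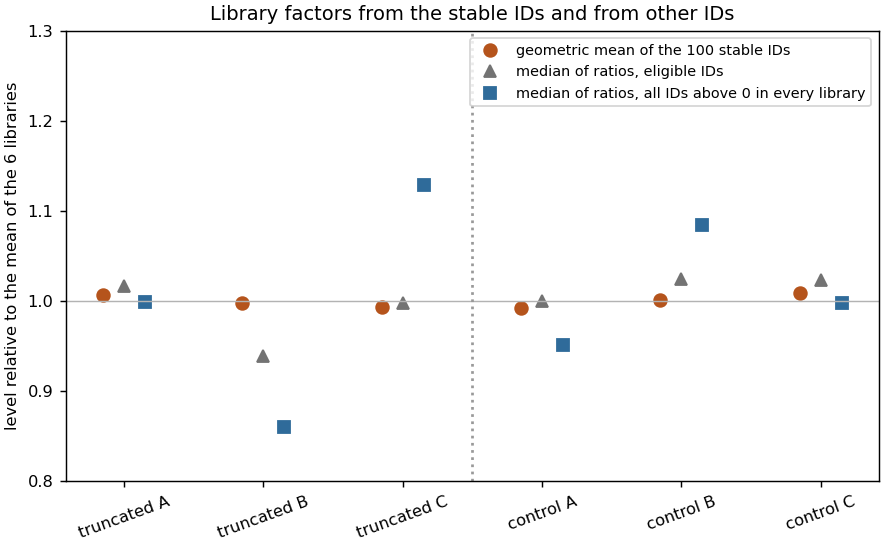
Level of each library relative to the mean of the 6, from the geometric mean of the 100 stable IDs (circles), the median of ratios over the eligible IDs (triangles) and over all IDs above 0 in every library (squares). The circles lie between 0.993 and 1.01 in all libraries, as the choice for low spread fixes, and the squares run from 0.86 in truncated B to 1.13 in truncated C.

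Under the other scalings the stable IDs varied more than on unscaled FPKM, where their median SD was 0.067. Choosing them for low SD on unscaled FPKM makes such a rise likely. Their median SD was 0.087 at equal sums, 0.093 after quantile scaling and 0.16 after median-of-ratios scaling, where the median of all eligible IDs was 0.31. Their SDs after median-of-ratios scaling ran from 0.081 to 0.208, while the 100 IDs chosen there had a median of 0.073 and a highest of 0.085. Of the stable IDs, 99 were in the 25% of eligible IDs with the lowest SD, at a median position of 14.0% from the lowest. The choice for low unscaled spread favours such a place. Of the 100 IDs chosen under median-of-ratios scaling, the 3 stable IDs included, 90 had their lowest unscaled FPKM in truncated B. The choice of low spread after division by its factor of 0.86 favours this.

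Of the stable IDs, 8 were also chosen at equal sums, after quantile scaling and after median-of-ratios scaling over the eligible IDs. They were Gb_04854, Gb_04869, Gb_07016, Gb_08733, Gb_12867, Gb_13623, Gb_19772 and Gb_26194. None of these 8 was among the 3 kept under median-of-ratios scaling over all IDs. The eligible IDs were also ranked by the mean SD of their log2 ratio to every other eligible ID, which needs no scaling. This ranking, which was not planned beforehand, kept 59 of the 100 and 7 of these 8, without Gb_19772.

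The rest of the rule mattered less, apart from the floor and the use of the group difference. A pseudocount of 0.1 or 0.5 kept 99 each, the coefficient of variation in place of the SD 97, and the range in place of the SD 90. Including the 100 IDs of highest mean kept 97. A floor of 10 FPKM kept 70 and a floor of 50 FPKM kept 46, which is all the stable IDs of at least 50 FPKM. Ranking by the mean of the within-group SDs, which leaves out the difference between groups, kept 55.

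**Figure D5:**
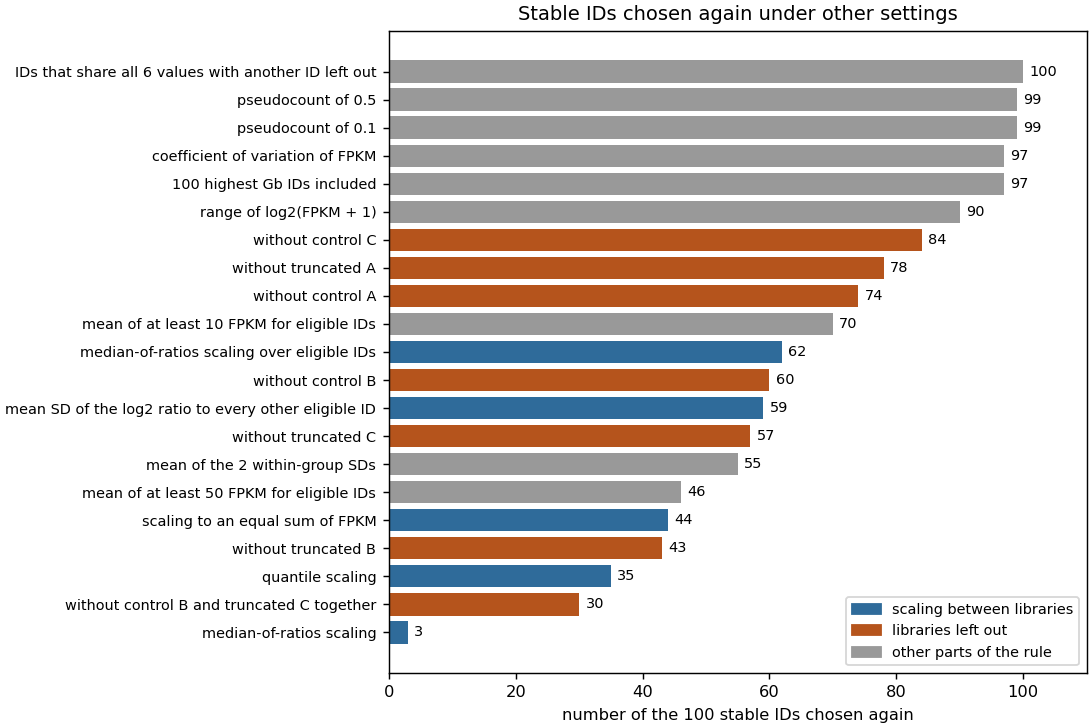
Number of the 100 stable IDs that were chosen again under each other setting of the rule, coloured by the kind of setting. The bars run from 3 under median-of-ratios scaling and 30 without control B and truncated C to 99 with another pseudocount and 100 without IDs that share their values.

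No stable ID shared its 6 values with another ID. Of the 4101 eligible IDs 16 did (0.39%), a share so low that nothing is read from the absence. In the numbering of IDs, 0 pairs of stable IDs had consecutive numbers and 2 pairs were 2 apart. Such pairs were not counted among the other eligible IDs, so nothing is read from these numbers either.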

How the data were processed

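RNA of truncated and control leaves gave 3 sequenced libraries each. CASAVA 1.8 (base calling), TopHat2 (spliced alignment) and RSEM (abundance estimation) are listed, per the submitters' processing notes, with neither order nor role. In the sources used here the genome build is not given. The authors deposited FPKM per ID and library, per the file headers, with no further scaling recorded. FPKM depends on the share of fragments that a few abundant genes take in a library, and on how reads of near-identical copies were shared out. Columns were matched to libraries by title, and 0 per-sample columns were left unused.

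Tests were made on log2(FPKM + 1), since FPKM suit no count model. That scale understates fold changes of low IDs. limma 3.58.1 in R 4.3.3 was fitted to the 16054 IDs that averaged 1 FPKM or more, with a group term and trended empirical Bayes variances, two-sided, with Benjamini-Hochberg adjustment at 0.05. Spreads, scalings and the choices on fewer libraries were computed in Python 3.11.15 with numpy 2.4.6 and pandas 2.3.3. Relative depth was read as the commonest ratio of control A to each library over IDs of 0.3 to 1.5 FPKM, and no absolute depth or counting interval follows from it. The limma fit, the rule, the median-of-ratios factors and the relative depth were tested on simulated data.

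The rule, the members and the lists were chosen with earlier results of these data known. Named IDs are the 10 of lowest SD, the 3 just inside and the 3 just outside the limit, the 2 of highest and the 2 of lowest mean, and the 2 of largest fold change in each direction. IDs named for a scaling or a ratio were singled out after their values were seen. Lists of reference gene families and of leaf cell type markers were set down by gene name, and as the IDs carry none, 0 of them were computed.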

Additional observations from a re-analysis of the deposited data

How the results depend on the processing

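The count of IDs called at an adjusted p under 0.05 (limma) stayed at 0 under the pseudocounts, scalings (that by the stable IDs included), filters, variance model and libraries tried, with the smallest adjusted p between 0.11 (without control C) and 0.992 (without control A). With the letter as a replicate block it was also 0, and 694 IDs were at an unadjusted p under 0.05 in place of 1103. Deviations from the group means correlated at 0.19, -0.58 and -0.55 between libraries of the same letter A, B and C. No library correlated best with that of its own letter, so the letters were not taken as pairs. The count at an unadjusted p under 0.05 (limma) was 1663 with no filter and 652 with a floor of 5 FPKM. Without 1 library it was 659 (without control A) to 1639 (without truncated C). All 100 stable IDs kept an interval within 2-fold, and 0 were at an unadjusted p under 0.05, in every one of these fits. The choice for low SD in the same libraries favours both counts, so nothing is read from them.

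The stable IDs chosen again numbered 3 under median-of-ratios scaling (62 over eligible IDs), 35 under quantile scaling, 44 at equal sums, 46 with a floor of 50 FPKM, 55 by within-group SDs, 59 by pairwise ratios, 30 without control B and truncated C, and 43 (without truncated B) to 84 (without control C) without 1 library. Their median SD of 0.067 was 0.068 with either other pseudocount (0.0683 and 0.0677), 0.0866 at equal sums, 0.0927 after quantile scaling, 0.156 and 0.0756 after median-of-ratios scaling over all and over eligible IDs, 0.0585 without control B and truncated C, and 0.0641 to 0.0659 without 1 library. The mean deviation in the library left out, 0.113, was 0.115, 0.114, 0.146, 0.124 and 0.124 with the 2 pseudocounts, equal sums, median-of-ratios and quantile scaling, and below that of the IDs not chosen in 6 of 6 libraries each time. The median SD in truncated leaves of IDs chosen on control leaves was 0.135 (without truncated B) to 0.264 (without control A), and that in control leaves of IDs chosen on truncated leaves 0.0585 (without control B) to 0.159 (without truncated C). The causes were not tested. Of 323 fold changes of the 19 named stable IDs under other fits, 311 moved by less than 1 SD, pooled within groups. The largest absolute value was 0.16. Fits that changed only the filter, the variance model or the replicate block cannot alter a fold change, and the count includes them. Absolute depth is not known, so the share of the spread that comes from counting cannot be given. With 3 libraries per group, no outlying library was sought by test.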
